A study of Mus musculus with 6 samples.

Results

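The clustered protocadherin genes were described in proliferating C2C12 cells, an established line of mouse myoblasts, the precursors of muscle fibres. The members were the genes of mouse chromosome 18 whose symbols begin with Pcdha, Pcdhb or Pcdhg, and they numbered 25 of 37252 annotated genes (2 in the alpha, 22 in the beta and 1 in the gamma cluster). Chromatin immunoprecipitation and sequencing (ChIP-seq) had been done for Setdb1, an enzyme that methylates lysine 9 of histone H3, and for H3K9me3, the trimethylated form of that lysine. The 6 libraries of the series were H3K9me3 ChIP, Setdb1 ChIP, Setdb1 ChIP with DMSO, Setdb1 ChIP with Wnt3a (50 ng/ml for 24 h), an input for Setdb1 and an input for H3K9me3, with 1 library in each group. All came from the same cell line, with no change of genotype named in the labels. One list of Setdb1 sites and both lists of H3K9me3 regions (from the peak callers MACS and SICER) were used here. The table does not say which Setdb1 library gave the sites, which limits every Setdb1 value, and no comparison with Wnt3a was analysed here. With 1 library behind each list, no difference had a replicate check and no test was made, so the values are descriptions of these lists.

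Clustered protocadherins are adhesion proteins of the cadherin family that are best known from the nervous system, where each neuron displays its own combination of them and uses it to tell its own branches from those of other cells. In the alpha and gamma clusters every variable first exon has its own promoter and is spliced to a few constant exons at the far end of the cluster, whereas the beta genes mostly consist of a single exon. Promoter choice in neurons involves the DNA-binding protein CTCF, the cohesin ring and DNA methylation. Setdb1 is known to act on this locus in neurons of the mouse forebrain, and H3K9me3 is a mark of silent chromatin.

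The annotation merged most alpha and all gamma transcripts into single genes. Pcdha11 (ENSMUSG00000007440.7) spanned the whole alpha cluster with 10 distinct starts, Pcdha3 (ENSMUSG00000091969.1) lay within it, and Pcdhgc5 (ENSMUSG00000023036.7) spanned the gamma cluster with 10 starts. RefSeq lists 14 alpha, 22 beta and 22 gamma symbols, so the alpha and gamma starts are identified here by the transcript names of the annotation and not by an isoform. The annotation has fewer starts than RefSeq has symbols, above all in gamma (10 starts for 22 symbols, beside 11 for 14 in alpha), so first exons that it lacks are counted as introns here. The 47 distinct starts (11 alpha, 26 beta, 10 gamma) and the first exon behind each were taken as units, because the gene bodies nest. The members are homologous copies, so their starts are not independent of each other. In the lists, a tag is 1 sequenced read in the ChIP library, fold enrichment is the ratio of ChIP reads to the number MACS expected there from the input, and the score is 10 times the -log10 transform of the peak p-value. An H3K9me3 region below is a stretch covered by a MACS peak or a SICER island. Total read numbers were not used, so the tags of a peak are the only depth behind it.

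H3K9me3 covered more of all 3 clusters than of the genome, and most of the gamma cluster. The gamma cluster (chromosome 18 from 37833989 to 38001527, mm9, 168 kb) had 62.4% of its bases in H3K9me3 regions, the beta cluster (37424652 to 37681073, 256 kb) had 31.5% and the alpha cluster (37089939 to 37347311, 257 kb) had 29.3%, against 7.17% of the genome and 7.03% of chromosome 18 (assembly gaps counted as bases). With MACS peaks alone the gamma cluster had 25.1%, the beta cluster 8.26% and the alpha cluster 5.55%, against 1.60% of the genome. MACS listed 47 peaks in the gamma cluster (28.1 per 100 kb), 41 in the beta cluster (15.99 per 100 kb) and 28 in the alpha cluster (10.9 per 100 kb), against 3.05 per 100 kb over the genome. Gamma thus carried the most peaks on the shortest span of the 3 clusters.

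**Figure D1:**
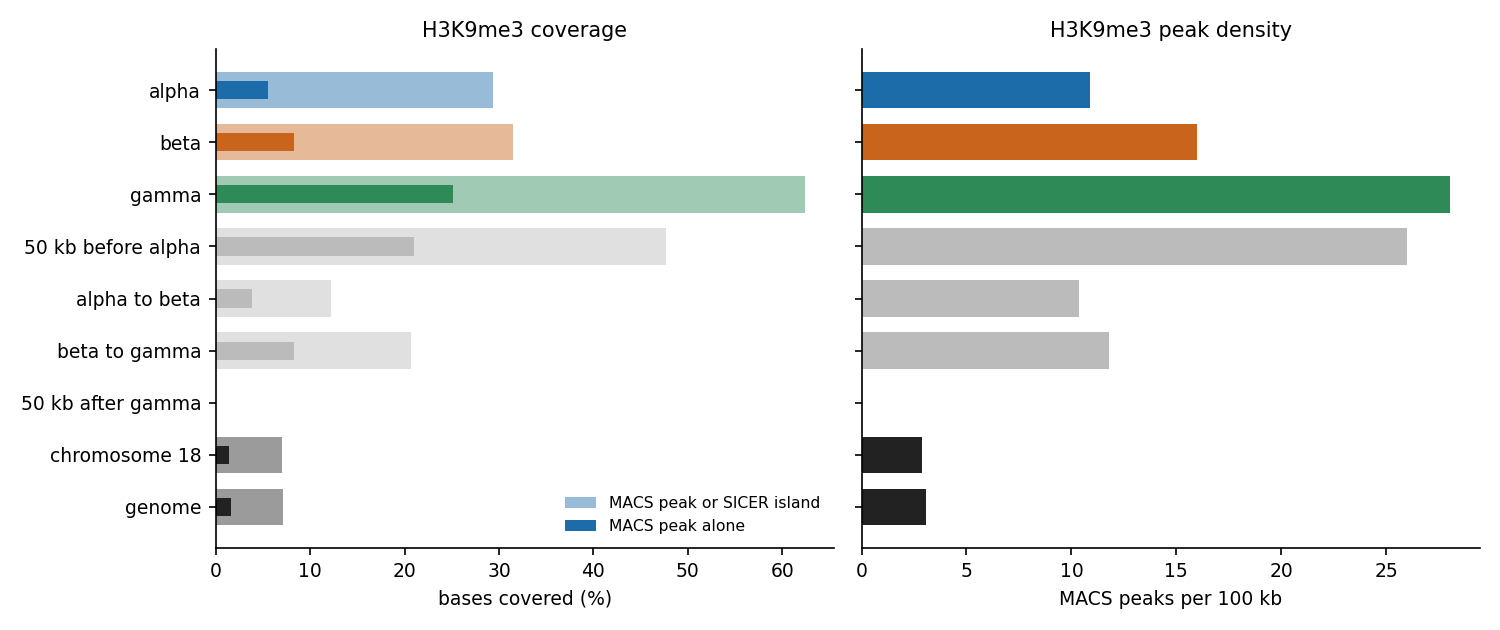
H3K9me3 in the clusters, in the sequence between and beside them, on chromosome 18 and in the genome. The left plot gives the percent of bases covered (wide pale bars, MACS peak or SICER island; narrow dark bars, MACS peak alone) and the right plot MACS peaks per 100 kb; gamma is highest in both, and the 50 kb after gamma hold none.

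The mark did not continue evenly through the locus. The 50 kb before the alpha cluster had 47.7% of bases covered, the 77.3 kb between alpha and beta had 12.2%, and the 153 kb between beta and gamma had 20.7%. The 50 kb after the gamma cluster held no MACS peak, no SICER island and no Setdb1 site. In that flank 99.1% of 50-base windows had a single exact copy in the genome, so nearly all of it could receive uniquely aligned reads. Counted in fixed 100 kb bins, 6 of the 11 bins that touch the locus with its 50 kb flanks had at least 20% of their bases in an H3K9me3 region, against 9.09% of all bins. The highest of them, at the start of gamma, had 72.4% and stood at the 98.3rd percentile of the genome's bins. The lowest with a member start, in the middle of alpha, had 4.60%, against a genome median of 1.06%.

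**Figure D2:**
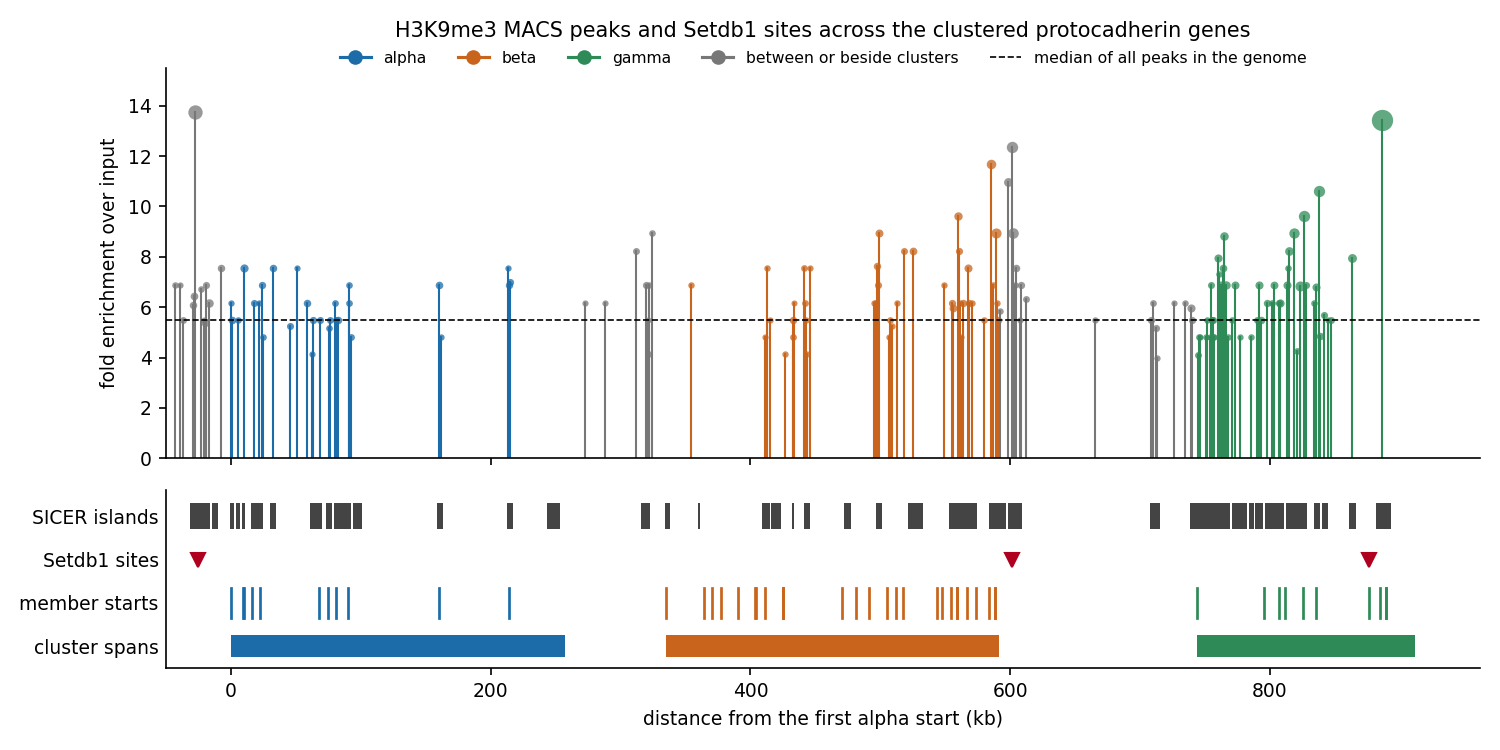
All 154 H3K9me3 MACS peaks in the locus with 50 kb on each side, plotted by summit (horizontal axis, kb from the first alpha start) and fold enrichment over input (vertical axis), with the dot area growing with tags. Tracks below give SICER islands, Setdb1 sites, member starts and cluster spans; the peaks of highest fold lie before alpha, after beta and at the end of gamma, and the dashed line is the median of all peaks in the genome.

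The peaks differed between clusters in number and breadth more than in median height. The median fold enrichment was 6.18 in each cluster, against 5.50 over all 80480 peaks. The deposited fold moves in steps, and 5.50 and 6.18 were the most frequent values of the whole list (19.1% and 15.3% of peaks), so these medians are neighbouring steps. The ranges were 4.09 to 13.44 in gamma, 4.12 to 11.68 in beta and 4.12 to 7.56 in alpha. The high peaks did differ: 6 of 47 in gamma, 7 of 41 in beta and 0 of 28 in alpha reached 8-fold, against 8.84% of all peaks. The peaks of gamma held 2512 tags in all, 833 of them in 1 peak, those of beta 1009 and those of alpha 638. Peaks with p below 1e-05 made up 31 of 47 in gamma, 19 of 41 in beta and 13 of 28 in alpha, against 38.5% of all peaks. SICER islands overlapped 46 of 47 peaks in gamma, 25 of 28 in alpha and 31 of 41 in beta, against 64.1% of all peaks. The longest gamma island measured 30.6 kb, and the longest of beta and alpha measured 21.6 kb and 12.8 kb.

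In the alpha cluster the mark was densest, per base, on the variable first exons. All 11 alpha starts lay within a SICER island, and all 11 first exons overlapped a MACS peak with its summit inside the exon. First exons made up 9.42% of the alpha span, yet 95.6% of their bases were in H3K9me3 regions and they held 18 of the 28 peak summits. The introns, 89.5% of the span, had 22.7% of bases covered and held the other 10 summits. As the introns are far longer, they held more of the marked alpha bases in all. The later exons of alpha had 0.312% of bases covered and no summit. Per first exon, MACS peaks covered 18.1% to 55.0% of the bases, with a median of 40.2%. The summits lay 38 to 2301 bp after the start, at a median of 1092 bp, so most lay in the body of the exon. The islands covered the starts as well.

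Individual alpha peaks were low and alike. The alpha start with the highest fold and most tags had 7.56-fold enrichment and 47 tags (95% Poisson interval 34.5 to 62.5, which covers counting error only), in a peak shared by the first exons of Pcdha11-209 and Pcdha11-210. Near the Pcdha11-202 start a peak of 13 tags had the same 7.56-fold enrichment. Pcdha3, the only alpha gene with an entry of its own, lay wholly within an island of 8.8 kb and had a peak of 25 tags and 6.18-fold enrichment in its first exon, 1973 bp after its start, outside the 1 kb start window. Over the other alpha starts the best fold within 1 kb was between 5.50 and 6.87. All of these values lie within a few steps of the deposited ratio.

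The last alpha starts stood apart from their neighbours. Pcdha11-201 and Pcdha11-202 begin 160 kb and 214 kb after the first alpha start, and each was covered by an island of its own (4.6 kb and 4.4 kb). The only other island past them in the alpha span, of 9.8 kb, lay 26.4 kb beyond the Pcdha11-202 island. It covered no member start but covered the start of Gm10544, a gene on the opposite strand. On one side of the Pcdha11-201 island lay 57.2 kb without any H3K9me3 region and on the other 49.8 kb. The Pcdha11-201 island began 1589 bp before its first exon and ended 575 bp after it, and the Pcdha11-202 island began 1022 bp before and ended 816 bp after its own. Both first exons were covered over 100% of their bases, with 47 and 55 tags in their MACS peaks. The 57.2 kb stretch had 60.1% single-copy 50-base windows and the 49.8 kb stretch 87.4%, so part of the first could not receive uniquely aligned reads. The first 9 alpha starts lie closer together, and the 94.9 kb from the first of them to 5 kb past the ninth had 53.3% of bases covered, against 15.3% of the remaining 162 kb of the span.

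**Figure D3:**
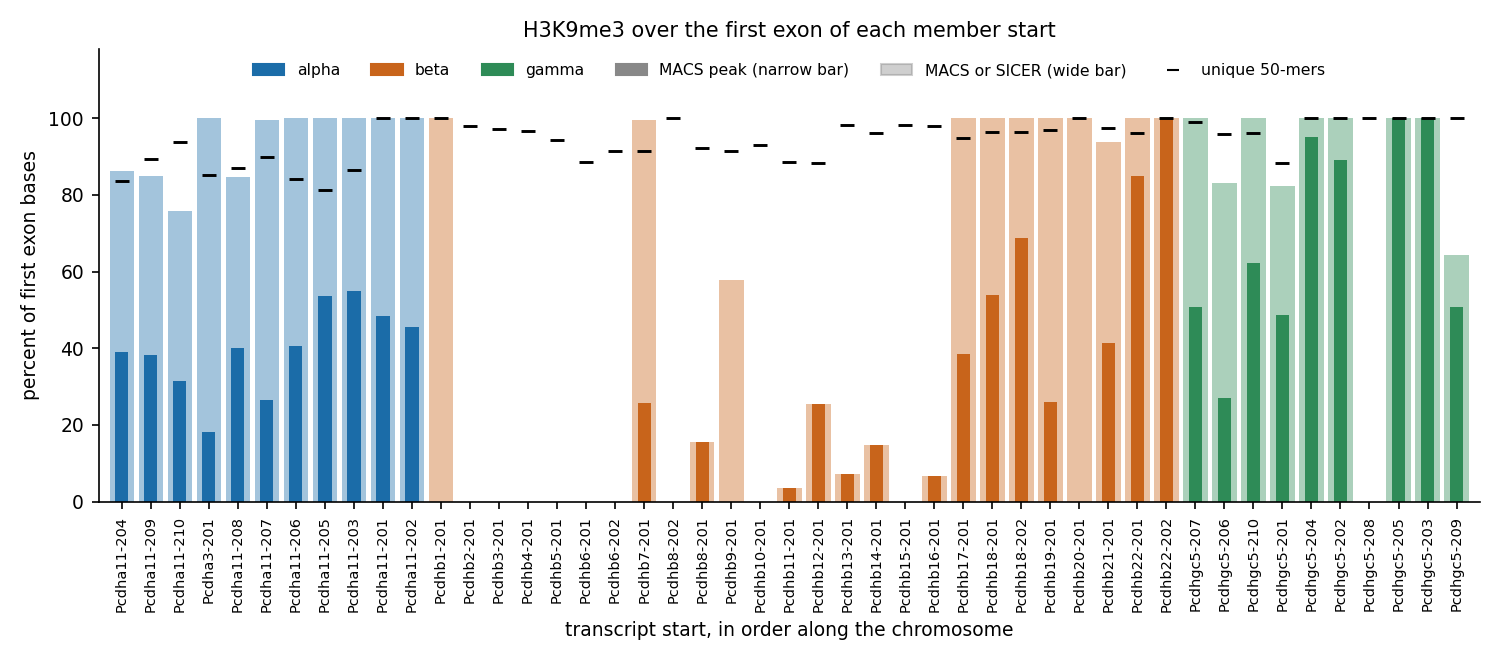
H3K9me3 over the first exon behind each of the 47 member starts, in order along the chromosome. Bars give the percent of exon bases in a MACS peak (narrow) and in a MACS peak or SICER island (wide), and black dashes the percent of 50-base windows with a single copy in the genome; every alpha exon, 9 of 10 gamma exons and the last beta exons carry the mark, and Pcdhb2 to Pcdhb6 have none.

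The beta cluster was split. Of its 22 genes, 12 had an H3K9me3 region at most 1 kb from a start, against 11.6% of all annotated genes, 11.7% of protein-coding genes and 15.8% of the genes of chromosome 18. A MACS peak lay there at 8 beta genes, against 8.25% of all genes, and an island at 9, against 8.6%. At the other end, 7 beta genes had no H3K9me3 region anywhere in their body. Both alpha genes and the gamma gene had a region at a start, which brought the members to 15 of 25. In the gene body, 18 of 25 members had a region, against 23.1% of all genes, and 15 had a MACS peak, against 20.4%. Since a gene with 10 starts has more chances than a gene with 1, the same was counted by distinct start: 11 of 11 alpha, 14 of 26 beta and 9 of 10 gamma starts had a region at that distance, against 8.41% of all distinct starts.

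The unmarked beta genes were neighbours. Pcdhb2, Pcdhb3, Pcdhb4, Pcdhb5 and Pcdhb6 lie in a row over 42.6 kb, and the whole row held no MACS peak and no island. It lay within a stretch of 47.4 kb without a region, in which 96.2% of 50-base windows had a single copy. Pcdhb10 and Pcdhb15, farther along, also had none in their body. Pcdhb1, at the head of the cluster, was covered entirely by an island of 4.4 kb but by no MACS peak. The 10 genes from Pcdhb7 to Pcdhb16 were mixed, as 5 had a region at a start and 30.2% of their 141 kb was covered. Among them Pcdhb14 had a peak of 8.25-fold enrichment and 22 tags and Pcdhb13 a peak of 6.18-fold enrichment and 14 tags, both outside any island. Pcdhb12 and Pcdhb7 each had a peak of 4.81-fold enrichment at the start, with 13 and 12 tags.

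At the far end of the cluster, Pcdhb17 to Pcdhb22 each had an H3K9me3 region at a start. These 6 genes lie over 36.4 kb, and 75.7% of that sequence was in H3K9me3 regions, with 16 peaks and 542 tags. An island of 21.6 kb ran over the starts of Pcdhb17, Pcdhb18, Pcdhb19 and the pseudogene Pcdhb20. Pcdhb20 was the least covered, with 13.4% of its body in a region and no MACS peak. A second island of 13.4 kb covered the start of Pcdhb22 and most of Pcdhb21. At the starts, Pcdhb18 had 9.62-fold enrichment with 51 tags, Pcdhb22 had 8.93-fold with 102 tags, Pcdhb19 had 7.56-fold with 44 tags and Pcdhb17 had 6.18-fold with 27 tags. The highest peak of the cluster, 11.68-fold with 82 tags (95% Poisson interval 65.2 to 102), lay inside Pcdhb21, with its summit 2192 bp after the start. The mark went on past the last beta gene into an 11 kb island that held 7 peaks. Single-copy windows made up 97.2% of the run from Pcdhb17 to Pcdhb22, 96.1% of the run from Pcdhb2 to Pcdhb6 and 81.5% of the run from Pcdhb7 to Pcdhb16, so the marked and the unmarked row were alike in this. The beta genes were divided into these runs after their values were seen.

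The gamma cluster was marked over annotated introns as well as first exons. Of its 10 starts, 9 had a region within 1 kb and 8 had a MACS peak there, against 5.86% of all distinct starts for MACS. First exons had 80.0% of bases in H3K9me3 regions and introns had 59.9%, and 34 of the 47 peak summits fell in introns. These shares rest on the merged gene model, in which first exons without an annotated start count as introns, so they are not set against those of alpha. The later exons of gamma, which include the constant exons, had no covered base, as in alpha they had next to none. The longest gamma island, 30.6 kb with 20 peaks, began before the Pcdhgc5-207 start and ran on into sequence annotated as intron, where first exons that the annotation lacks can lie. The peak within 1 kb of that start was low, with 4.09-fold enrichment and 21 tags. Farther along, the peak at Pcdhgc5-204 had 9.62-fold enrichment and 146 tags (95% Poisson interval 123 to 172), and the peak at Pcdhgc5-202 had 10.62-fold enrichment and 144 tags (121 to 170). MACS peaks covered 95.1% and 89.1% of these first exons.

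The strongest peak of the locus by tags and score lay near the end of gamma. It ran from 37972983 to 37982057 on chromosome 18 (mm9), a length of 9075 bp, with 833 tags (95% Poisson interval 777 to 892), 13.44-fold enrichment and a score of 2721.81. Among the 80480 peaks of the genome it ranked 3 by length, 15 by score, 17 by tags and 248 by fold. Its deposited false discovery rate was 13.33%, the highest in the locus, where the median was 1.575%. The peak covered the starts of Pcdhgc5-205, Pcdhgc5-203 and Pcdhgc5-209, and all bases of the first exons of Pcdhgc5-205 and Pcdhgc5-203. A single peak therefore supplied the values of these 3 starts, which are not separate measurements. All of its 50-base windows had a single copy in the genome.

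Between these marked starts 1 gamma start was free of the mark. Pcdhgc5-208, whose first exon of 2568 bp begins 132 kb after the first gamma start, had no MACS peak and no island within 1 kb, and none on any base of that exon. The nearest MACS peak was the 9075 bp peak, 6919 bp from the start. Its stretch without a region measured 15.4 kb and 98.8% of the 50-base windows in it had a single copy. The sequence 500 bp on each side of this start had 58.4% GC and a CpG ratio (CpG dinucleotides over the number the base composition predicts) of 0.80, against medians of 49.3% and 0.64 over the gamma starts. The GC was the highest of the gamma starts, but the marked start Pcdhgc5-204 had a higher CpG ratio, of 0.89.

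**Figure D4:**
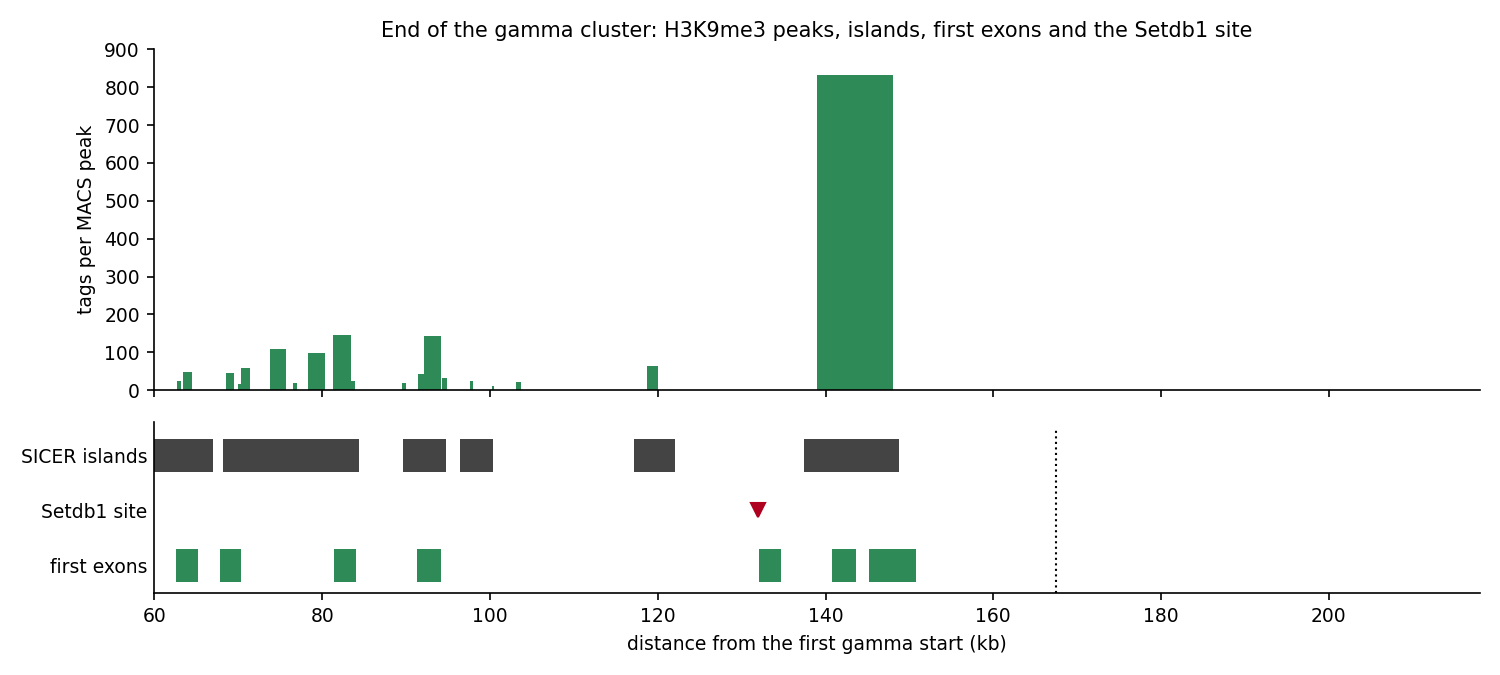
The end of the gamma cluster, from 60 kb after its first start. The upper plot gives each H3K9me3 MACS peak over its true width with its tags on a linear axis; the lower tracks give SICER islands, the Setdb1 site and first exons, and the dotted line the end of the cluster. The peak of 833 tags covers first exons beside the unmarked first exon of Pcdhgc5-208, at whose start the Setdb1 site lies.

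Around the starts, the members had more of the mark after the start than before it when MACS peaks were counted. In the 2.5 kb after the start, MACS peaks covered 67.8% of bases in gamma, 37.5% in alpha and 22.8% in beta, against 1.57% for all protein-coding starts. In the 2.5 kb before the start they covered 35.5% in gamma, 5.84% in alpha and 3.07% in beta, against 1.28% for all protein-coding starts. Within regions of either caller the contrast remained in alpha, with 89.9% after and 59.3% before, and was small in beta, with 40.8% after and 35.7% before. In gamma these values were 86.4% and 80.9%. Neighbouring starts are often less than 10 kb apart, so the outer part of each profile holds sequence of the next member.

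**Figure D5:**
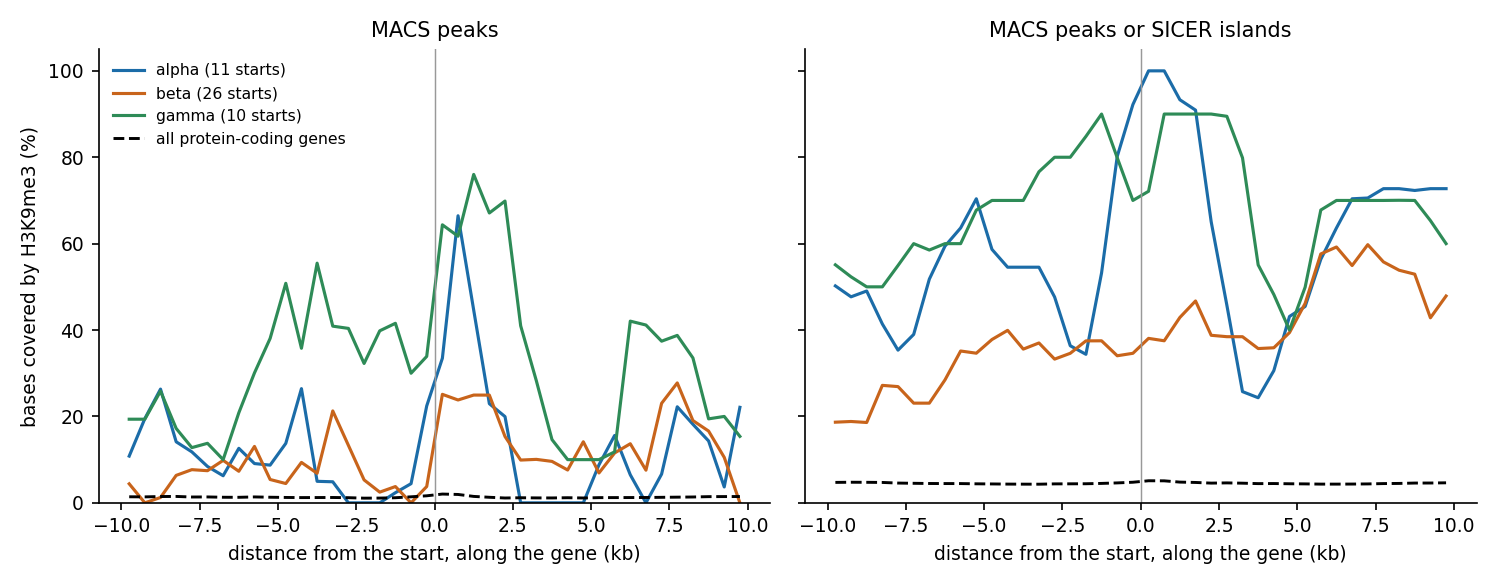
Percent of bases covered by H3K9me3 in 500 bp bins from 10 kb before to 10 kb after a start, by MACS peaks (left) and by MACS peaks or SICER islands (right), for the alpha, beta and gamma starts and for all protein-coding starts. By MACS peaks the curves of all 3 clusters rise across the start, and by either caller that of alpha is highest just after it. In all 3 clusters the curves stay above the dashed line of protein-coding genes over most of the window.

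The first exons of the clusters are long, and a long exon has more room for a peak. They were therefore read beside first exons of at least 2000 bp. MACS peaks overlapped 10 of 10 such exons in alpha, 9 of 10 in gamma and 12 of 22 in beta, against 20.8% of the 1021 first exons of that length in the genome, the members included. By regions of either caller the counts were 10, 9 and 14, against 23.4%.

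Of the 1191 Setdb1 sites of the list, 3 lay within the 1012 kb of the locus with its 50 kb flanks. Chromosome 18 held 44 sites over 90772 kb, and the genome measured 2638992663 bp. Per base the locus thus had more sites than the chromosome or the genome, but the count of 3 is small. The first covered 590 bp from 37064237 to 37064826 (chromosome 18, mm9), before the alpha cluster, with 29 tags (95% Poisson interval 19.4 to 41.6) and 6.71-fold enrichment. Its summit lay 25.3 kb before the Pcdha11-204 start and the nearest annotated start of any gene was that of Gm6756, at 15.7 kb. It sat within the peak of highest H3K9me3 fold in the locus, which measured 3993 bp and had 295 tags and 13.74-fold enrichment, ranking 184 by fold and 89 by score in the genome, and within an island of 15.6 kb.

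The second site lay after the beta cluster, in the 11 kb island that follows Pcdhb22. It covered 638 bp from 37691049 to 37691686, with 38 tags (26.9 to 52.2) and 4.13-fold enrichment, near the 4-fold minimum of the list. Its summit was 13.4 kb after a start of Pcdhb22, the nearest start of any gene. The H3K9me3 peak at this site had 148 tags and 12.37-fold enrichment. Of the 3 H3K9me3 peaks with the highest fold in the locus, 2 thus held a Setdb1 site. The remaining peak, of 9075 bp in gamma, held none.

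The third site was the only Setdb1 site inside a member gene, against 1.59% of all annotated genes with a site in the body. It covered 435 bp from 37965654 to 37966088, with 22 tags (13.8 to 33.3) and 6.44-fold enrichment. The site reached over the start of Pcdhgc5-208 and its summit was 181 bp before it. No H3K9me3 region overlapped it, and the nearest island was 5.31 kb and the nearest MACS peak 6.90 kb away. The 250 bp on each side of its summit had 59.9% GC and a CpG ratio of 0.89, against 30.1% and 0.35 at the site before alpha and 29.3% and 0.09 at the site after beta. In the locus 2 of 3 Setdb1 sites overlapped an H3K9me3 region, against 68.8% of all 1191 sites. The tags of the 3 sites, 22 to 38, lay around the median of 33 over all sites, and their fold ranked from 691 to 1189 of 1191.

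By gene, 9 of the 25 members had a Setdb1 site no more than 50 kb from a start (7.08% among all annotated genes), but they shared the 3 sites. The site before alpha was within 50 kb of Pcdha11 and Pcdha3. The site after beta was within 50 kb of Pcdhb17, Pcdhb18, Pcdhb19, Pcdhb20, Pcdhb21 and Pcdhb22. In that run each gene had an H3K9me3 region at a start, but the match rests on the 50 kb limit. Pcdhb17 lay 46.7 kb from the site, and Pcdhb16 and Pcdhb15, without a region at a start, lay 54.0 kb and 58.2 kb away. The site in gamma belonged to Pcdhgc5. Counting only sites in an H3K9me3 region left 8 of 25 members, against 4.51% of all genes, since the gamma site was in none. The other 16 beta genes had no site within 50 kb. Pcdhgc5 was the only member with a site at most 10 kb from a start, against 2.02% of all genes. The depth of the Setdb1 library was not used, so sites too weak for this list were not assessed.

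Base composition varied between the clusters. The 500 bp on each side of alpha starts had a median of 47.4% GC and a CpG ratio of 0.70, gamma starts had 49.3% and 0.64, and beta starts had 41.8% and 0.39. Within beta, the 10 starts with a MACS peak had a median of 42.0% GC and a CpG ratio of 0.40, and the 16 without had 41.3% and 0.38. The GC ranges of the beta starts were 39.8% to 45.1% with a peak and 37.7% to 50.6% without, and so overlapped. The alpha first exons were the least accessible to uniquely aligned reads, with single-copy windows in 81.2% to 100% of bases, against 88.2% to 100% in beta and 88.3% to 100% in gamma. Reads from the remaining bases are missing from the lists, and counted over single-copy bases alone the coverage was 62.5% in gamma, 34.9% in beta and 33.4% in alpha.

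Genes of other families lie among the members. Taf7, a subunit of the general transcription factor TFIID, and Slc25a2, a mitochondrial carrier of ornithine, lie between beta and gamma. Both had a region at the start, in an island of 7.8 kb. At Taf7 a peak had 5.17-fold enrichment and 25 tags, and another, nearer to the outermost start of the gene, had 3.98-fold and 13 tags. At Slc25a2 a peak had 5.50-fold enrichment and 26 tags, and another at the edge of the start window had 6.18-fold and 19 tags. 3222401L13Rik, in the same interval, had a peak of 6.18-fold enrichment and 12 tags. Gm6756, Gm10544 and SNORA40 had a region at the start but no MACS peak there. Gm10545 and Gm16882 are annotated on the opposite strand within alpha and gamma, and their peaks of 6.87-fold and 10.62-fold enrichment are those of the member exons they overlap. Diap1, a formin that nucleates actin filaments and begins on the opposite strand beyond gamma, had no region at a start or in its body.

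Related families were compared by the same count. Of 13 non-clustered protocadherin genes, which lie apart from the clusters, 7 had an H3K9me3 region in the same start window, beside 15 of 25 clustered members and 11.6% of all genes. Pcdh15 stood in this list under 2 gene identifiers, as did Atf7ip in the list of factors below. Pcdh8 had 11.68-fold enrichment with 202 tags, Pcdh19 had 10.99-fold with 70 tags and Pcdh15 had 6.18-fold with 13 tags at the start. Of 29 classical and desmosomal cadherins, 11 had a region, among them Cdh4 (9.62-fold, 194 tags), Cdh20 (8.93-fold, 57 tags), Cdh11 (8.25-fold, 92 tags) and Cdh1, the epithelial cadherin (7.56-fold, 76 tags). Of 19 genes for factors known to act on the clusters, 4 had a region, among them Smc1a, a cohesin subunit (5.41-fold, 30 tags), and, by an island alone, Stag2, another cohesin subunit, and Atf7ip, a partner of Setdb1. In the non-clustered protocadherins a median of 1.27% of the gene body was covered, in the cadherins 4.92% and in the factors 0%, beside 14.8% in the clustered members and 0% over all genes. Where a start window held several peaks, the fold and the tags given for a listed gene may come from different peaks. The gene bodies differ greatly in length between these lists, and no test was made between them.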

How the data were processed

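Reads had been aligned to mm9 with Bowtie 0.12.7, and peaks called over the matching input with MACS 1.4 (versions per the submitters' processing notes), and islands with SICER (200 bp windows, 1000 bp gaps). The authors kept uniquely aligned reads and removed duplicates. Tags per peak are raw counts as deposited. The fold enrichment deposited by the authors is a ratio of ChIP reads to those expected from input. The score, also deposited, is 10 times the -log10 transform of the peak p-value, and the false discovery rate is deposited in percent.

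Overlaps of at least 1 bp were counted against the GENCODE annotation of NCBIM37 (the mm9 assembly), on chromosomes 1 to 19 and X. Windows were 1 kb on each side of a start, and the locus was taken with 50 kb on each side. Exact copies of every 50-base window were counted in the reference, since reads had at least 50 bases. Poisson intervals are exact at 95% and cover counting error only. Tags per listed peak of the locus were 10 to 833, which sets the precision of each value. The software was Python 3.11.15 with pandas 2.3.3, SciPy 1.17.1 and NumPy 2.4.6, and plots were made with Matplotlib 3.10.9. The interval and copy-number functions were tested on simulated data.

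Genes named were members with a Setdb1 site within 50 kb, members with a MACS peak at a start (up to 8 a cluster by fold), genes starting in the locus, and up to 4 listed genes by fold. The runs of beta genes, the unmarked gamma start, and the other members named were chosen after their values were seen. Members and lists were chosen with earlier results of these data known. No sequence of this chromosome is shown. One gene of the lists is counted but not reported by name here.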

Additional observations from a re-analysis of the deposited data

How the results depend on the processing

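Of 77 values recomputed under another setting, 62 stayed close to the value given above (within 1.5 times for counts and coverage) and 15 moved. Coverage was highest in gamma and lowest in alpha under each setting tried. The peak counts kept that order except with 50 kb on each side, where gamma had 55, beta 57 and alpha 42, and at 5-fold or more, where gamma and beta had 35 each and alpha 24, and under the 1% limit below, where beta and alpha tied. With p below 1e-05 the peaks were 31 in gamma, 19 in beta and 13 in alpha. With a false discovery rate of at most 1% in addition they were 2 in gamma, 0 in beta and 0 in alpha. The median rate was 1.33% in gamma, 1.97% in beta and 1.79% in alpha, against 2.2% over all peaks of the genome. The peak of 833 tags has a rate of 13.33%. At p below 1e-05 the median fold was 6.87 in gamma, 7.56 in beta and 6.18 in alpha. MACS peaks alone covered 25.1% of gamma, 8.26% of beta and 5.55% of alpha, and left 1 alpha gene with a region at a start. Within 10 kb of a start, 20 of 22 beta genes and 12 of 19 genes of the factors had a region. Over all 37252 genes 12947 had one at that distance, so the 1 kb background does not apply to these counts. The background was 15.8% on chromosome 18. At 8-fold or more, 0 Setdb1 sites remained within 50 kb, a limit above the median of 7.32-fold over all 1191 sites. No paired analysis was possible because there was only 1 library in every group.

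Limits are the single library behind each list, the Setdb1 library that the table does not name, few tags per peak outside the strongest, and merged gene models for alpha and gamma. Reads from repeated bases are missing from the lists, most of all in alpha and between beta and gamma, where 83.1% and 75.7% of 50-base windows were single-copy.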

Other observations

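A further Setdb1 site lay beyond the flank considered above, 58.0 kb before the Pcdha11-204 start (chromosome 18, 37031722 to 37032205, mm9). It had 32 tags (95% Poisson interval 21.9 to 45.2) and 9.07-fold enrichment, the highest fold of the Setdb1 sites within 100 kb of the locus, and ranked 265 of 1191. Its H3K9me3 peak had 176 tags and 8.35-fold enrichment, in an island of 10.4 kb. The nearest annotated start was that of Gm6756, at 48.4 kb. With it, 3 of 4 sites around the locus overlapped an H3K9me3 region, and the 50 kb that hold it had 20.8% of bases covered.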
